A study of Mus musculus with 4 samples.

Results

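The genes described here encode 9 transcription regulators of male meiosis and of the spermatid: *Crem*, *Fhl5*, *Tbpl1*, *Gtf2a1l*, *Rfx2*, *Sox30*, *Tcfl5*, *Mybl1* and *Brwd1*. A probe set, a group of short oligonucleotides that reads one transcript or a few, was taken when the platform annotation gave it exactly 1 gene and that gene was one of the 9. Of the 45101 probe sets on the array, 21 met this rule, and the 9 genes stand among 18193 genes that have a probe set of their own. RNA came from whole testes of 2 WT mice and 2 *Ccnyl1*-/- mice, with 1 array per mouse. All 4 were adult C57BL/6 males, 2 months old, with no treatment given in the labels, and the 2 mice per genotype were submitted as biological replicates. *Ccnyl1* encodes a cyclin. The *Ccnyl1*-/- mice carried the *Ccnyl1*tm1a(EUCOMM)Wtsi allele, a knockout-first gene trap with a LacZ reporter that acts in every tissue, and they came from heterozygous parents. Each testis mixes all germ cell stages with Sertoli, Leydig, peritubular and immune cells, so that fewer cells of a type and less RNA per cell cannot be told apart.

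Germ cells pass through meiosis and then, as haploid spermatids, build the acrosome, the flagellum and the compacted nucleus. Transcription stops while the spermatid elongates, so many proteins of the late stages are made from mRNAs that were transcribed and stored earlier. MYBL1 and TCFL5 act in pachytene spermatocytes, where MYBL1 drives the genes of the piRNA pathway. RFX2 and SOX30 act around the exit from meiosis and in round spermatids. CREM, with its coactivator FHL5 (also called ACT), drives genes of the spermatid, such as those of the transition proteins and protamines. TBPL1 (also called TRF2 or TLF) and GTF2A1L (also called ALF) are relatives of TBP and of the large TFIIA subunit that are abundant in male germ cells. BRWD1 is a bromodomain and WD-repeat protein of chromatin that is needed in meiotic and postmeiotic germ cells. Mouse mutants of several of these regulators are infertile because spermatids or spermatocytes arrest.

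The promoters of the regulators were read first, since these factors bind short DNA elements and can lie upstream of each other. RefSeq promoter windows were found for 7 of the 9 genes, 8 windows in all because *Fhl5* has more than one, and the 250 bases before the start used for each window were searched on both strands. For *Rfx2*, *Tcfl5* and 1 window of *Fhl5* this start is the outer end of the RefSeq gene. For the other windows the gene reaches farther upstream than the window, by 2917 bases in *Gtf2a1l*, 991 in *Sox30*, 969 in *Tbpl1*, 336 in *Fhl5* and 25 in *Brwd1*, so those windows lie inside the gene. Cores of the elements were searched as TGACGTCA, the full CREB/CREM palindrome, and TGACG, its shorter core, which is part of it; as GTTGCC for RFX factors, AACGG for MYB factors, ACAAT for SOX factors and CACGTG, an E-box, for bHLH factors. The 2 windows with the most matches are shown, with MYB cores in capitals and, in *Rfx2*, the RFX core in capitals as well, where it overlaps the last MYB core. Both are RefSeq sequence of GRCm38.p6, written 5′ to 3′ on the strand of the gene, *Rfx2* from chr17:56831009-56831258 and *Tcfl5* from chr2:180642692-180642941, each on the minus strand and ending at the base before the start.
Rfx2: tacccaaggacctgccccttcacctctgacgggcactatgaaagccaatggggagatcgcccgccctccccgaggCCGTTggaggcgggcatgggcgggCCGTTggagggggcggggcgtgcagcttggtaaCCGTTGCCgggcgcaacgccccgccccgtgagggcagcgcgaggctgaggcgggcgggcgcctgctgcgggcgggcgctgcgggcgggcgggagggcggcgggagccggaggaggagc
Tcfl5: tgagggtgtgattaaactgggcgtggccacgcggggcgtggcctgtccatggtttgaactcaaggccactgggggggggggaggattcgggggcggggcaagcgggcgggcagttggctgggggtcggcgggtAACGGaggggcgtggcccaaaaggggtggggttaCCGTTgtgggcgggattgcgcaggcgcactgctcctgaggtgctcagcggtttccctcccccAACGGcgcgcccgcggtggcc
A match describes letters only, and no binding was measured.

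*Rfx2* held 3 MYB cores, all as CCGTT on the strand printed, at 175 to 171, 151 to 147 and 118 to 114 bases upstream. It also held an RFX core at 116 to 111 bases and a TGACG core at 224 to 220 bases upstream. *Tcfl5* held MYB cores at 117 to 113, 83 to 79 and 21 to 17 bases upstream. At least 3 MYB cores lay in 42 of all 32851 windows (0.128%), a count made after these sequences had been seen. Upstream of the start used for its window, *Sox30* held a MYB core at 38 to 34 bases and a SOX core at 25 to 21 bases. Likewise, *Fhl5* held a SOX core at 43 to 39 bases in 1 of its windows, and *Gtf2a1l* an RFX core at 188 to 183 bases. *Tbpl1* and *Brwd1* held none of the letters searched in this window. Over all windows, MYB cores were found in 14.5%, RFX cores in 10.4%, SOX cores in 27.7%, TGACG in 17.8%, CACGTG in 6.02% and TGACGTCA in 1.55%. Among the 8 windows of the regulators the counts were 3, 2, 2, 1, 0 and 0.

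**Figure D1:**
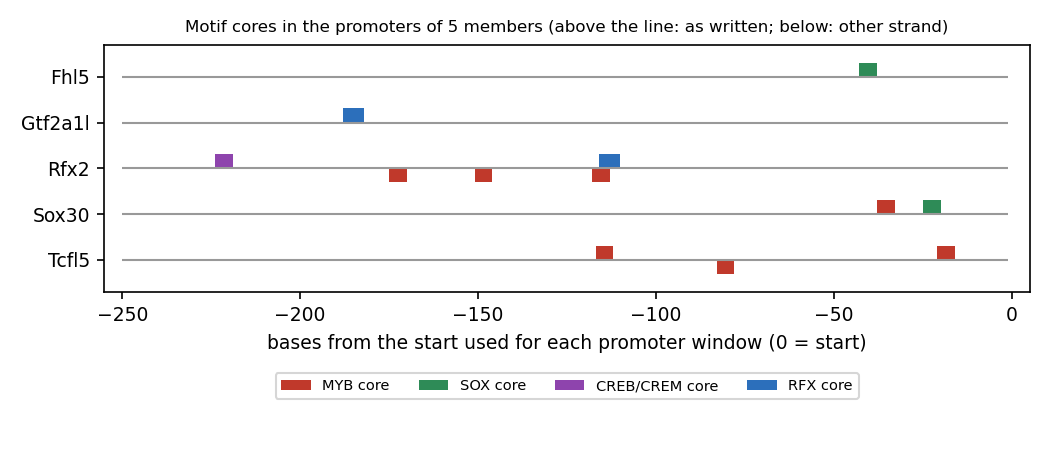
Matches to 4 element cores in the promoter windows of the 5 regulators that held any, with the distance in bases from the start used for each window on the horizontal axis, boxes above each line for the strand of the gene and below it for the other strand. *Rfx2* and *Tcfl5* hold 3 MYB cores each, and the RFX core of *Rfx2* overlaps the MYB core at 118 to 114 bases upstream.

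The arrays give MAS 5.0 signals, intensities on a linear scale. The log2 of (signal + 16) was fitted with limma over the 32438 probe sets whose mean signal reached at least 32, and a call needed a Benjamini-Hochberg adjusted p under 0.05. All log2 fold changes are *Ccnyl1*-/- over WT on this scale, which understates changes of dim probe sets, and intervals are 95% intervals. Where a gene has several probe sets, the brightest stands for it in counts of genes. Probes differ in how well they hybridise, so levels of different genes are not compared.

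*Ccnyl1* itself gave signals of 2256 and 2425 in the WT mice and 921 and 969 in the *Ccnyl1*-/- mice, a log2 fold change of -1.29 (SE 0.09, adjusted p = 0.00463 by limma). The knockout mice were lower, as their labels state, and the signal was not absent. The trimmed mean signal was 500 on all 4 arrays, correlations between arrays ran from 0.977 to 0.980, and the 3′ to 5′ ratio of actin ran from 1.74 to 1.87. Over all tested probe sets, 4 were called (0.0123%), all lower in *Ccnyl1*-/- mice. At an unadjusted p under 0.05 there were 1964 (6.05%), and in 11634 (35.9%) the 2 genotypes did not overlap. With 1 probe set per gene, 3 of 15268 genes were called (0.0196%), and 961 (6.29%) had an unadjusted p under 0.05.

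None of the regulators was called. Of their 21 probe sets, 19 entered the test, and 2 dim ones, of *Crem* and *Rfx2*, did not reach the minimum signal. Among the 19, 0 passed the adjusted threshold in either direction and 0 had an unadjusted p under 0.05 (limma), with adjusted p-values from 0.830 to 0.998. The test that the methods name for 2 groups, run as an alternative, also called 0, and by it 2 had an unadjusted p under 0.05. The log2 fold changes ran from -0.19 to 0.38, 10 above 0 and 9 below. The genotypes did not overlap in 7 of the 19 (36.8%), against 35.9% of all probe sets. Of all 19, 5 were higher without overlap in *Ccnyl1*-/- mice and 2 lower without overlap, where the shares over all probe sets were 20.6% and 15.3%. These shares lie close to the background.

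**Figure D2:**
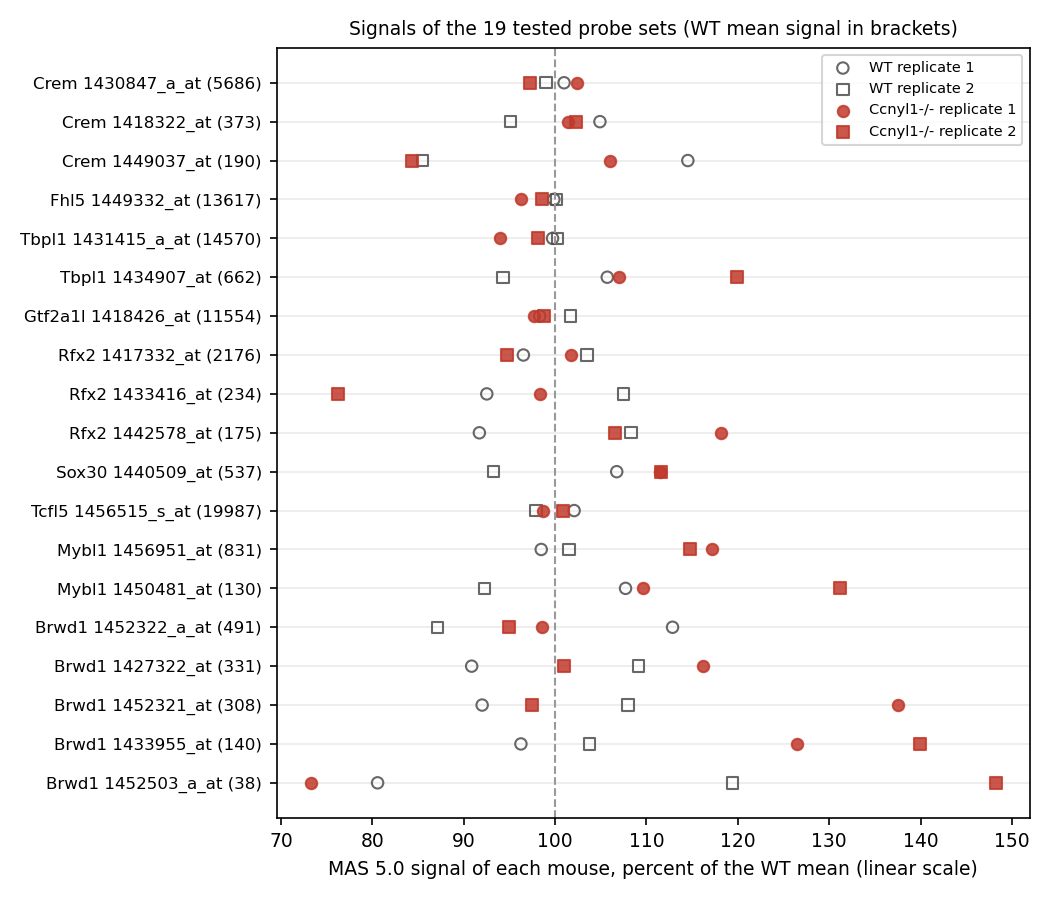
Signal of each mouse in the 19 tested probe sets, as a percent of the WT mean of that probe set on a linear axis, with open symbols for the 2 WT mice and filled symbols for the 2 *Ccnyl1*-/- mice. The mean WT signal stands in brackets; the 4 mice stay within 96.3% to 100.1% in *Fhl5* and within 94.0% to 100.3% in the bright probe set of *Tbpl1*, and spread from 73.3% to 148% in the dimmest one, of *Brwd1*.

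Read from the brightest probe set per gene, the differences of the 9 regulators were small. They ran from -0.06 for *Tbpl1* to 0.21 for *Mybl1*, with a median of -0.025 and a median size of 0.035 regardless of sign. Over all 15268 measured genes the median was -0.00036 and the median size 0.11. The 95% interval lay within 1.2-fold in both directions for 6 of the 9 (*Crem*, *Fhl5*, *Tbpl1*, *Gtf2a1l*, *Rfx2* and *Tcfl5*) and within 1.5-fold for all 9. Counting every tested probe set of the regulators, 14 of 19 intervals lay within 1.5-fold, where 46.8% of all tested probe sets did. Bright probe sets vary less, and 4 of the regulators (*Fhl5*, *Tbpl1*, *Gtf2a1l* and *Tcfl5*) have mean signals of at least 10000. All 4 had values below 0, of which *Gtf2a1l* and *Tcfl5* were above 0 after quantile normalization. Of the 402 genes that bright, 302 (75.1%) had values below 0, with a median of -0.047, and this count was 229 after quantile normalization and 379 with the arrays scaled to one median. The median of the 9 regulators likewise turned to 0.026 after quantile normalization and was -0.10 with one median.

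**Figure D3:**
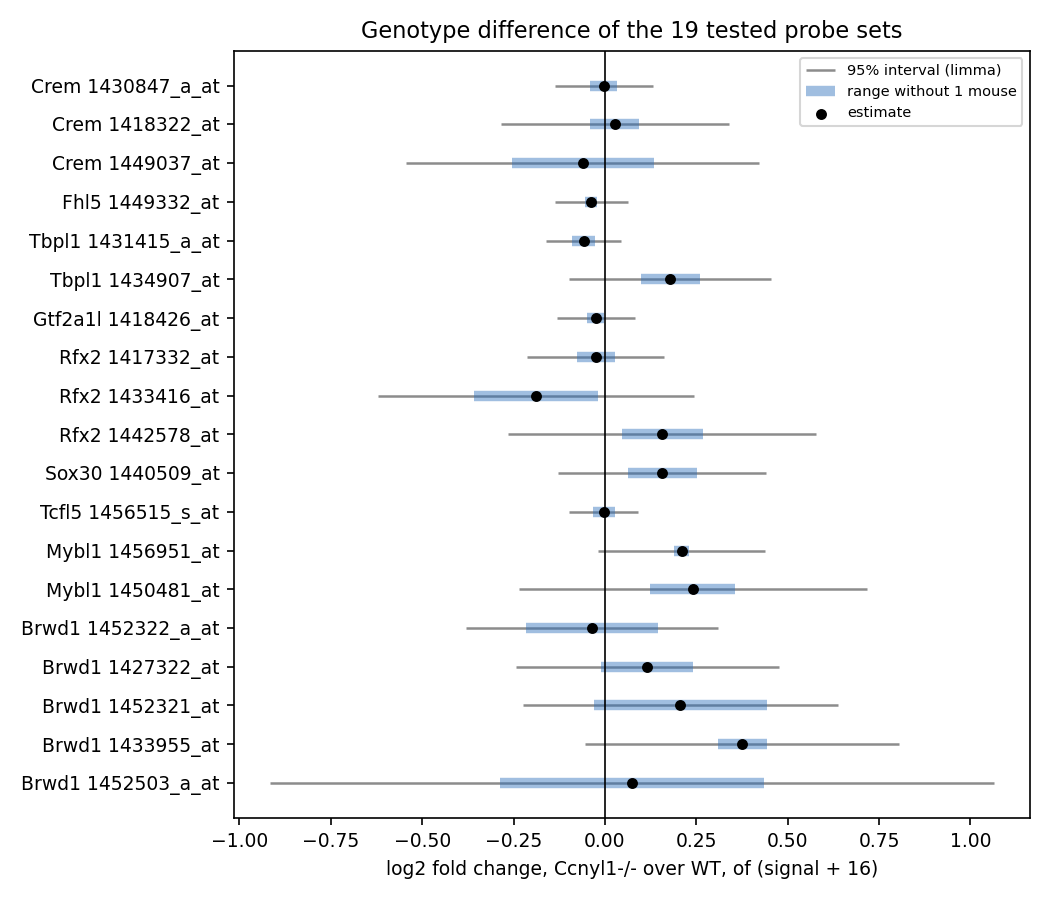
Log2 fold change, *Ccnyl1*-/- over WT, of the 19 tested probe sets on a linear axis, with points for the estimates, thin lines for the 95% intervals of limma and thick bars for the range when each mouse in turn is left out. Every interval includes 0; the narrowest belong to bright probe sets such as *Tcfl5* (-0.10 to 0.09) and the widest to the dimmest *Brwd1* probe set (-0.92 to 1.06).

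*Crem* encodes a CREB-family activator and, from other promoters and splice forms, repressors. Its brightest probe set (1430847_a_at, a suffix for probe sets that read several transcripts of 1 gene) gave signals of 5742 and 5630 in WT mice and 5822 and 5528 in *Ccnyl1*-/- mice. The genotypes overlapped, with means of 5686 ± 78.8 and 5675 ± 208 (SD, n = 2) and a log2 fold change of -0.0031 (interval -0.14 to 0.13, adjusted p = 0.998). The next probe set (1418322_at) read 391.6 and 355 in WT mice and 379 and 382 in *Ccnyl1*-/- mice. Here the *Ccnyl1*-/- mice lay between the WT mice, and the log2 fold change was 0.027 (-0.29 to 0.34). Another (1449037_at) read 217 and 162 in WT mice and 201 and 160.1 in *Ccnyl1*-/- mice, where the lower mouse of each genotype was replicate 2. Its log2 fold change was -0.06 (-0.54 to 0.42). The dimmest (1430598_at) stayed between 11.7 and 22.7 in all mice and was not tested. Which *Crem* isoforms each probe set reads was not determined, so activators and repressors cannot be separated here.

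*Fhl5* encodes the LIM-only coactivator of CREM in the testis. Its only probe set gave signals of 13598 and 13636 in WT mice and 13115 and 13426 in *Ccnyl1*-/- mice. Both *Ccnyl1*-/- mice were lower than both WT mice, by little. The means were 13617 ± 26.9 and 13270.5 ± 220 (SD, n = 2), the log2 fold change was -0.037 (interval -0.14 to 0.06), and the adjusted p was 0.917. The interval corresponds to a change between -9.07% and 4.44%.

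Partners of CREM were measured in 13 of 14 listed genes, and 0 were called, with 2 at an unadjusted p under 0.05 (6.29% of all genes). Of these, 6 had values above 0 and 7 below, with a median of -0.027 that was 0.011 after quantile normalization. *Crtc2*, a CREB coactivator, gave 206 and 138 in WT mice and 81.5 and 104 in *Ccnyl1*-/- mice, a log2 fold change of -0.77 (adjusted p = 0.764), while its other probe set gave 0.23. *Fhl3*, another LIM-only protein, was dim and gave 23.8 and 21.4 in WT mice against 28.7 and 69.3, a log2 fold change of 0.68 (adjusted p = 0.869). *Creb1*, the general relative of CREM, gave 509.6 and 502 in WT mice and 645 and 599.9 in *Ccnyl1*-/- mice. Its log2 fold change of 0.29 had an adjusted p of 0.810, and its other probe sets gave 0.14, 0.23, -0.15 and 0.07. *Kif17*, the kinesin that moves FHL5 out of the nucleus, had a log2 fold change of 0.06, and its other probe sets gave 0.027 and -0.011. *Fhl4*, a testis relative of *Fhl5*, had -0.027, and its other probe set gave 0.033.

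Late spermatid genes of the CREM program were all measured, 24 of 24, and 0 were called. The list holds genes of transition proteins, protamines, the outer dense fibres and the fibrous sheath, and sperm-specific enzymes. Values below 0 were found in 18 and above 0 in 6, with a median of -0.085, against -0.047 for genes of at least 10000 in signal. That median was -0.06 after quantile normalization and -0.16 with one median. In 11 of the 24 genes the *Ccnyl1*-/- mice were lower without overlap and in 2 higher, where 18.3% and 17.7% of all measured genes were, and 9 had an unadjusted p under 0.05, as did 6.29% of all. The list is bright, with 16 of 24 genes at a mean signal of at least 10000. Of all 402 genes that bright, 46.0% were lower without overlap, 9.45% higher, and 20.1% had an unadjusted p under 0.05. *Tnp1*, encoding transition protein 1, read 40328 and 41476 in WT mice and 41515 and 40188 in *Ccnyl1*-/- mice. The genotypes overlapped, with a log2 fold change of -0.0018, and its other, dimmer probe set gave 0.19, also with overlap. *Ace*, whose germ cell form starts from a promoter that CREM binds, gave 691 and 868 in WT mice and 663 and 638 in *Ccnyl1*-/- mice. Its log2 fold change of -0.25 (adjusted p = 0.840) was not matched by its other probe set, at 0.34. *Fscn3*, a testis fascin that bundles actin, had -0.21 (adjusted p = 0.797). *Ldhc*, the sperm lactate dehydrogenase, had 0.038 (adjusted p = 0.923), and -0.040 with one median. In its other probe set both *Ccnyl1*-/- mice were higher, with a log2 fold change of 0.088 (adjusted p = 0.830).

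*Tbpl1* encodes a TBP relative that does not bind a TATA box and is needed for spermatids to mature. Its brightest probe set (1431415_a_at) gave 14529.7 and 14611 in WT mice and 13698 and 14305 in *Ccnyl1*-/- mice. Both *Ccnyl1*-/- mice were lower, with a log2 fold change of -0.06 (interval -0.16 to 0.04, adjusted p = 0.878). The dimmer probe set (1434907_at) ran the other way, with 699 and 624 in WT mice and 708 and 793 in *Ccnyl1*-/- mice. There both *Ccnyl1*-/- mice were higher, with a log2 fold change of 0.18 (-0.10 to 0.45, adjusted p = 0.863). The 2 probe sets of the gene thus separated the genotypes in opposite directions.

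*Gtf2a1l* encodes the germ cell form of the large TFIIA subunit, which stabilises TBP and TBPL1 on DNA. Its signals were 11359 and 11749 in WT mice and 11286 and 11413 in *Ccnyl1*-/- mice. The higher *Ccnyl1*-/- mouse lay between the WT mice. The means were 11554 ± 275 and 11349.8 ± 89.8 (SD, n = 2), and the log2 fold change was -0.025 (interval -0.13 to 0.08, adjusted p = 0.953). After quantile normalization it was 0.026.

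Of the general transcription machinery, 15 of 17 listed genes were measured and 0 were called, with 1 at an unadjusted p under 0.05. Values above 0 were found in 7 and below 0 in 8, with a median of -0.014 that was 0.029 after quantile normalization. The genotypes did not overlap in 7 of the 15 (36.1% of all measured genes), 5 of them higher in *Ccnyl1*-/- mice (17.7%) and 2 lower (18.3%). *Gtf2a1*, the general counterpart of *Gtf2a1l*, gave 524 and 518 in WT mice and 636 and 629 in *Ccnyl1*-/- mice. Both *Ccnyl1*-/- mice were higher by more than the mice of a genotype differed, with a log2 fold change of 0.27 (adjusted p = 0.815), and its other probe sets gave 0.15 and 0.06. *Tbp*, the TATA-binding protein, gave 2979.5 and 2960.5 in WT mice against 3187 and 3165. These did not overlap either, with a log2 fold change of 0.096 (adjusted p = 0.867). *Taf7*, a TFIID subunit, had 0.25 (adjusted p = 0.840), and its other probe set gave 0.16. *Gtf2a2*, the small TFIIA subunit and the brightest of the list, had 0.07, which was -0.012 with one median.

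*Rfx2* encodes an RFX factor that drives genes of the flagellum in round spermatids. Its brightest probe set (1417332_at) gave 2101 and 2252 in WT mice and 2215 and 2061 in *Ccnyl1*-/- mice. The WT and *Ccnyl1*-/- mice overlapped almost entirely, with means of 2176 ± 107 and 2138 ± 109 (SD, n = 2) and a log2 fold change of -0.025 (interval -0.21 to 0.16, adjusted p = 0.976). A dimmer probe set (1433416_at) gave 217 and 252 in WT mice against 230.4 and 179, a log2 fold change of -0.19 (-0.62 to 0.24). Another (1442578_at) gave 160.2 and 189 against 206 and 186, a log2 fold change of 0.16 (-0.26 to 0.58). The genotypes overlapped in all 3, and the last (1433415_at) lay between 3.56 and 19.9 and was not tested.

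Axoneme and cilium genes of the RFX program were measured in 25 of 25, with 0 called. Values below 0 were found in 16 and above 0 in 9, with a median of -0.05, which was -0.03 after quantile normalization and -0.13 with one median. The genotypes did not overlap in 16 of the 25, 12 of them lower in *Ccnyl1*-/- mice and 4 higher, and 4 genes had an unadjusted p under 0.05. Over all measured genes these shares were 36.1%, 18.3%, 17.7% and 6.29%, and 1 gene of the list reaches a mean signal of 10000. *Ccdc39*, a ruler protein of the axoneme that positions inner dynein arms, gave 6341 and 6147 in WT mice and 7454 and 7929.7 in *Ccnyl1*-/- mice. Both *Ccnyl1*-/- mice were above both WT mice, with a log2 fold change of 0.30 (SE 0.06, adjusted p = 0.554, the lowest of the list). Its other probe set gave 0.37 (adjusted p = 0.737), also without overlap. *H1f6*, the testis linker histone whose promoter RFX2 binds, was dim on this array, with 87.1 and 107 in WT mice against 43.8 and 106, a log2 fold change of -0.40 (adjusted p = 0.894). The low value came from 1 *Ccnyl1*-/- mouse, and without it the log2 fold change was 0.11. *Rsph1*, a radial spoke protein and the brightest of the list, had -0.09 (adjusted p = 0.832).

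*Sox30* encodes an HMG-box factor that starts the haploid program as meiosis ends. Its only probe set gave 573 and 501 in WT mice and 599 and 599 in *Ccnyl1*-/- mice. Both *Ccnyl1*-/- mice were above both WT mice and nearly equal to each other, while the WT mice differed more. The means were 537 ± 51.2 and 599 ± 0.476 (SD, n = 2), and the log2 fold change was 0.16 (interval -0.13 to 0.44, adjusted p = 0.880).

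The SOX30 and round spermatid list was measured in 18 of 18 genes, with 0 called. Values below 0 were found in 11 and above 0 in 7, with a median of -0.016, and the split was 9 and 9 after quantile normalization and 16 and 2 with one median. The genotypes did not overlap in 9 of the 18 (36.1% of all genes), 7 of them lower (18.3%) and 2 higher (17.7%), and 3 had an unadjusted p under 0.05 (6.29%). A mean signal of at least 10000 was reached by 5 of the 18. *Dpy19l2*, a protein that anchors the acrosome to the nucleus, gave 4072 and 4115 in WT mice and 4462 and 4981 in *Ccnyl1*-/- mice, a log2 fold change of 0.20 (adjusted p = 0.780). *Spaca4*, a sperm membrane protein of fertilisation, gave 3625 and 3208 against 3101 and 2855, a log2 fold change of -0.20 (adjusted p = 0.816). These 2 genes, the farthest from 0 in the list, separated the genotypes in opposite directions.

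*Tcfl5* encodes a bHLH factor of pachytene spermatocytes. Its only probe set carries the suffix _s_at, for probes that may match more than 1 gene, and read 20403 and 19570 in WT mice and 19722 and 20150.2 in *Ccnyl1*-/- mice. The *Ccnyl1*-/- mice lay between the WT mice. With means of 19987 ± 589 and 19936 ± 302 (SD, n = 2), the log2 fold change was -0.0034 (interval -0.10 to 0.09, adjusted p = 0.998), a change between -6.61% and 6.58%.

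*Mybl1* encodes A-MYB, the master regulator of pachytene piRNA genes. Its brighter probe set (1456951_at) gave 819 and 844 in WT mice and 974 and 954 in *Ccnyl1*-/- mice. The gap between the genotypes was wider than that between the mice of either, with means of 831 ± 17.8 and 964 ± 13.9 (SD, n = 2). The log2 fold change was 0.21 (SE 0.10, interval -0.018 to 0.44), a change between -1.23% and 35.4%, with an unadjusted p of 0.0665 and an adjusted p of 0.830 by limma. This was the lowest unadjusted p among the regulators, and 6.05% of all probe sets had one under 0.05. The dimmer probe set (1450481_at) gave 139.6 and 119.7 in WT mice and 142 and 170.1 in *Ccnyl1*-/- mice. It did not overlap either, in the same direction, with a log2 fold change of 0.24 (-0.24 to 0.72, adjusted p = 0.894). With each mouse left out in turn, the log2 fold change of *Mybl1* stayed between 0.19 and 0.23 for the brighter probe set and between 0.12 and 0.36 for the dimmer one. Both probe sets were read on the same 4 arrays.

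Pachytene genes of the MYBL1 and TCFL5 program were measured in 23 of 24, with 0 called. Values above 0 were found in 15 and below 0 in 8, with a median of 0.039, which was 0.047 after quantile normalization and -0.038 with one median. The genotypes did not overlap in 10 of the 23, against 36.1% of all genes, 7 of them higher in *Ccnyl1*-/- mice (17.7%) and 3 lower (18.3%), and 3 had an unadjusted p under 0.05 (6.29%). *Piwil1*, the Piwi protein MIWI that binds pachytene piRNAs, gave 5263 and 5507 in WT mice and 5804 and 5881 in *Ccnyl1*-/- mice. The genotypes did not overlap, with a log2 fold change of 0.12 (adjusted p = 0.830). *Spo11*, the enzyme that makes meiotic double-strand breaks, gave 2440.02 and 3166 in WT mice and 3381 and 3151 in *Ccnyl1*-/- mice. The genotypes overlapped, and the log2 fold change of 0.23 (adjusted p = 0.832) was 0.044 without WT replicate 1 and 0.42 without WT replicate 2. *Mov10l1*, an RNA helicase needed to make piRNAs, went the other way, with 1363 and 1327 in WT mice and 1179 and 1149 in *Ccnyl1*-/- mice and a log2 fold change of -0.21 (adjusted p = 0.820). The summed signal of spermatocyte marker genes was 33507 and 34185 in WT mice and 35679 and 36400.4 in *Ccnyl1*-/- mice, with 4 of 7 markers above 0 and none called. The markers were split, with log2 fold changes from -0.64 to 0.23. Without overlap, 2 were higher (17.7% of all genes) and 2 lower (18.3%), and 2 had an unadjusted p under 0.05 (6.29%). The markers *Sycp1*, *Sycp3*, *Hspa2* and *Spo11* are also in the pachytene list. The part of spermatocyte RNA in the values of *Mybl1* was not tested.

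*Brwd1* had the most probe sets, 5, and they gave different values. The brightest (1452322_a_at) read 554 and 428 in WT mice and 484 and 467 in *Ccnyl1*-/- mice. The *Ccnyl1*-/- mice lay between the WT mice, with a log2 fold change of -0.03 (interval -0.38 to 0.31, adjusted p = 0.986). The next (1427322_at) read 300.4 and 361 against 384 and 334, and another (1452321_at) 283 and 332 against 423 and 299.7. Both overlapped, with log2 fold changes of 0.12 (-0.24 to 0.48) and 0.21 (-0.22 to 0.64). Only 1433955_at separated the genotypes, with 135 and 145 in WT mice and 177 and 196 in *Ccnyl1*-/- mice. Its log2 fold change of 0.38 was the largest of the regulators in size (-0.05 to 0.80, unadjusted p = 0.0784, adjusted p = 0.830). The dimmest (1452503_a_at) read 30.8 and 45.7 against 28.0 and 56.7, near the minimum signal, with a log2 fold change of 0.07 (-0.92 to 1.06). Which transcripts of *Brwd1* each probe set reads was not determined.

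**Figure D4:**
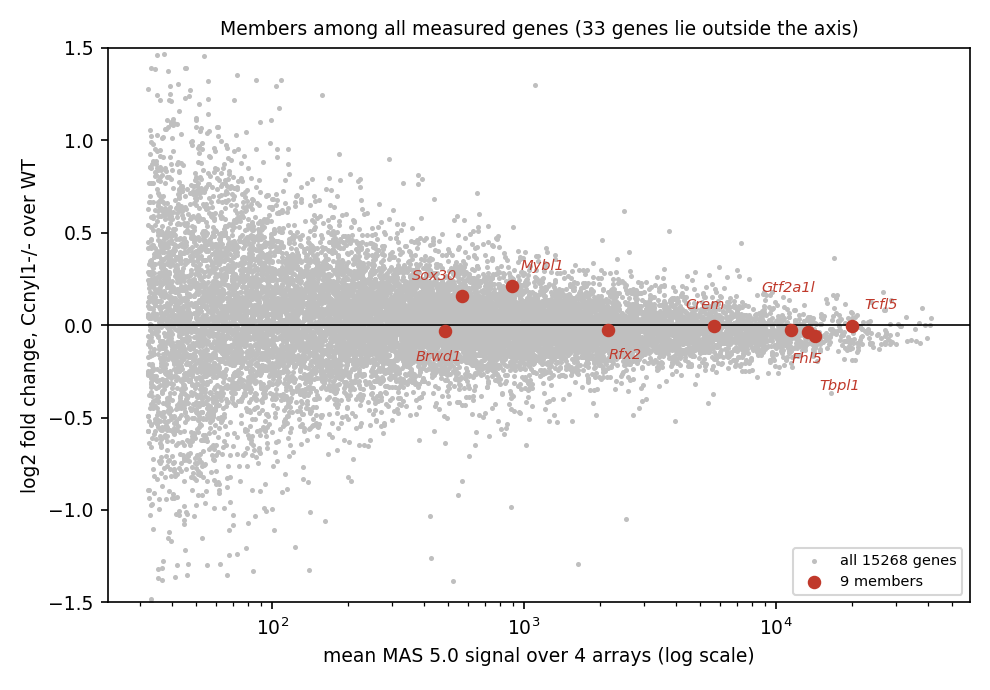
Log2 fold change, *Ccnyl1*-/- over WT, against the mean signal of 4 arrays on a log axis, for the brightest probe set of 15268 genes (grey) and of the 9 regulators (red); 33 genes lie outside the vertical axis. The spread narrows with signal, and the regulators lie between -0.06 and 0.21.

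Relatives of these factors in the RFX, SOX, MYB, bHLH and BRWD families were measured in 20 of 21 listed genes, and 0 were called, with 0 at an unadjusted p under 0.05. Values above 0 were found in 14 and below 0 in 6, a split of 11 and 9 after quantile normalization and of 6 and 14 with one median. *Sox12* had a value of 0.34 on the log2 scale (adjusted p = 0.855), which was 0.098 without *Ccnyl1*-/- replicate 1 and 0.59 without *Ccnyl1*-/- replicate 2. *Sox13* had one of 0.33 (adjusted p = 0.880), with overlap. *Brdt*, the testis bromodomain protein and the brightest of the list, read 5202 and 5340.2 in WT mice and 5099 and 4935 in *Ccnyl1*-/- mice. Its log2 fold change was -0.07 (adjusted p = 0.886), and its other probe sets gave -0.03 and 0.15. Other regulators of meiosis and the spermatid, such as *Stra8* and *Prdm9*, were measured in 20 of 24, with 0 called and 1 at an unadjusted p under 0.05. Values above 0 were found in 10 and below 0 in 10, a split of 8 and 12 after quantile normalization and of 3 and 17 with one median. *Zfp42*, the zinc finger factor REX1, gave 528 and 569 in WT mice and 639.7 and 797 in *Ccnyl1*-/- mice, a log2 fold change of 0.37 (adjusted p = 0.789). *Sohlh1*, a bHLH factor of spermatogonia, had -0.22 (adjusted p = 0.894), and *Spz1*, a bHLH-zip factor of spermatids, -0.05 (adjusted p = 0.878).

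**Figure D5:**
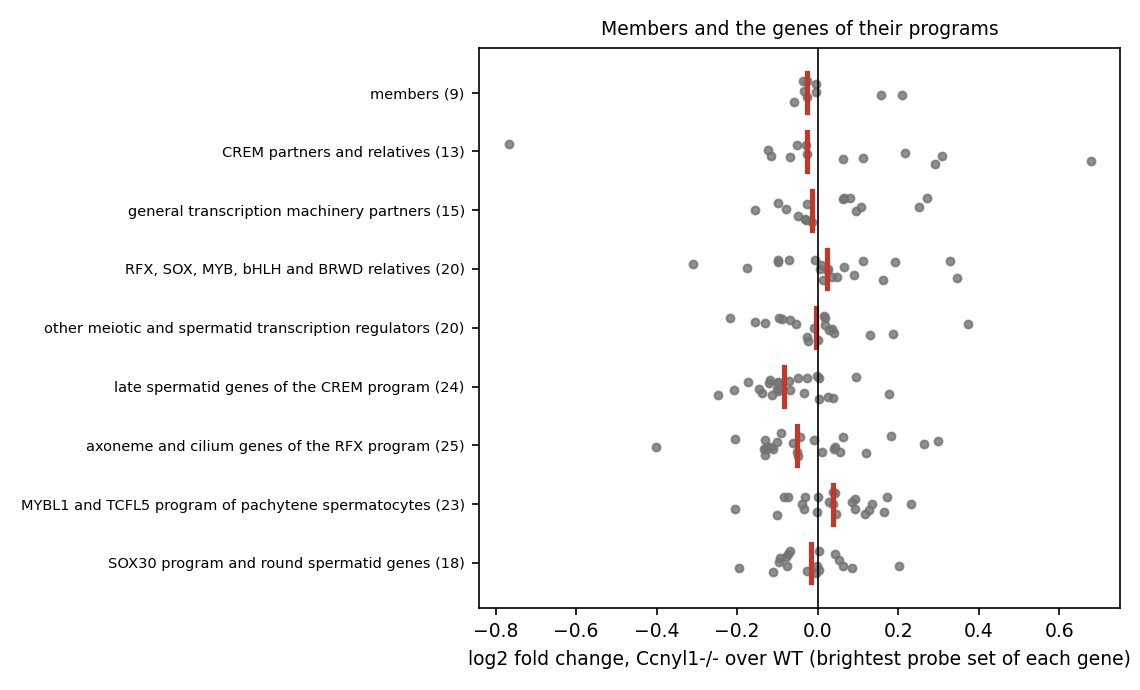
Log2 fold change, *Ccnyl1*-/- over WT, of each measured gene in the lists (points, 1 per gene from its brightest probe set) with the median of each list (red bar) and the number of genes in brackets. Medians run from -0.085 for the list of late spermatid genes to 0.039 for that of pachytene genes, and 0 genes were called in any list. The late spermatid and pachytene lists both hold *Ldhc*, so they do not fully separate the stages.

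Markers of the testicular cell types were present in both genotypes. Summed signals of 6 spermatogonial markers ran from 5264 to 5608 in WT mice and from 5239 to 5459 in *Ccnyl1*-/- mice. Those of 5 round spermatid markers ran from 34855 to 36545 and from 35216 to 35908, and those of 7 elongating spermatid markers from 207047 to 212801 and from 207153 to 214533. All 7 elongating markers are also in the late spermatid list, and the round spermatid markers are in that list or the SOX30 list. These sums thus read genes already counted above. In 4 of the 7 elongating markers the genotypes did not overlap, 2 higher and 2 lower, and 3 had an unadjusted p under 0.05. All 7 reach a mean signal of 10000, and over all genes that bright these shares were 55.5%, 9.45%, 46.0% and 20.1%. Among somatic cells, 7 Sertoli markers summed to 18634 and 19556 in WT mice and 18012 and 18447 in *Ccnyl1*-/- mice. The brightest markers weigh most in such a sum. Of the 7 Sertoli markers, 5 had values above 0 and 2 below, with a median of 0.12 and 0 called. Signals of 5 peritubular myoid markers summed to 2786 and 2969 in WT mice against 3015 and 3405. All 5 had values above 0, with a median of 0.14 and 0 called, and 2 were higher without overlap (17.7% of all measured genes). The 4 measured Leydig markers summed to 6741 and 3708 in WT mice and 8883 and 4946 in *Ccnyl1*-/- mice. In the Leydig sums the mice of a genotype differed more than the genotypes. Of the 4 Leydig markers, 3 had values above 0 and 1 below, with a median of 0.47 and 0 called. All 7 macrophage markers had values below 0, with a median of -0.29, sums of 3385 and 2313 in WT mice and 2210.2 and 1991 in *Ccnyl1*-/- mice, and 0 called. In 3 of them the *Ccnyl1*-/- mice were lower without overlap (18.3% of all measured genes), and 2 had an unadjusted p under 0.05 (6.29%). Blood was read by 2 of 4 markers, both with values below 0, and epididymis by 1 of 5, whose signal stayed between 9.54 and 70.7. The part of these cell types in the values of the regulators was not tested.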

How the data were processed

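Total RNA of 4 mouse testes was read on Affymetrix Mouse Genome 430 arrays. The values deposited by the authors are MAS 5.0 signals, intensities on a linear scale, made with global scaling to 1 target per array. The stated target is 100, whereas the trimmed mean of every deposited array is 500, so the offset and minimum below act at a lower brightness than planned. MAS 5.0 keeps probe effects and treats each array alone. No column of another sample was present, and detection calls were not used.

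Genes were named from the platform annotation. The log2(signal + 16) was fitted in R 4.3.3 with limma 3.58.1 (lmFit, eBayes with trend, genotype as the only term) over 32438 probe sets with a mean signal of at least 32, with Benjamini-Hochberg adjustment and a threshold of 0.05. The number of arrays, 2 per genotype, limits the precision. The script was tested on simulated data. The regulators, the gene lists and the markers were chosen with earlier results of these data known. Every probe set of the regulators is reported; of each other list, the 2 genes farthest from 0, the brightest and a few fixed partners are named. Shared genes (such as *Tnp1*, *Ldhc* and *Camk4*) count in each list that holds them, and many germ cell markers are also genes of the lists. Motif cores were searched in RefSeq promoter windows of GRCm38.p6, some of which lie inside the gene.

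Alternatives were no offset or 32, no minimum or 100, quantile normalization, one median per array, eBayes without trend or robust, the replicate number as a block, the methods' t-test, no suffixed probe sets, the mean over probe sets, and each mouse left out. List medians and bright genes were recomputed under the 2 scalings after the data were seen.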

Additional observations from a re-analysis of the deposited data

How the results depend on the processing

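No probe set of the regulators was called under any alternative run. Their median log2 fold change of -0.025 was 0.026 after quantile normalization and -0.10 with arrays scaled to one median. It was -0.0034 with the probe sets of a gene averaged, and ran from -0.020 to 0.011 with each mouse left out. Without suffixed probe sets it was 0.071, but that median leaves out *Tcfl5* and reads *Crem*, *Tbpl1* and *Brwd1* from dimmer probe sets. Over all probe sets, the 4 called lower became 7 with one median, 0 without the variance trend and 0 by the methods' t-test (1900 at an unadjusted p under 0.05), and ran from 5 to 31 with a mouse left out, 18 without WT replicate 1 and 31 without WT replicate 2. The 0 called higher ran from 1 to 28, with 28 without WT replicate 1 and 24 without WT replicate 2. The cause of these changes was not tested. With the replicate block the counts were 10 lower and 4 higher, with 0 among the regulators. Deviations of same-numbered mice correlated at r = 0.014 over all tested probe sets. The labels do not say whether same-numbered mice were related or processed together, and this correlation cannot settle it. *Mybl1* 1456951_at had an unadjusted p of 0.0426 with no minimum signal and 0.0149 by the methods' t-test, and *Brwd1* 1433955_at 0.0367 without the trend and 0.0454 by the methods' t-test, with adjusted p-values from 0.808 to 0.850.

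With all mice kept, the sign turned in 5 of 127 comparisons of the regulators. Quantile normalization gave 0.026 for *Crem* 1430847_a_at, -0.0053 for *Crem* 1418322_at, 0.026 for *Gtf2a1l* and 0.030 for *Tcfl5*, and also 0.011 for *Fhl4* and 0.0055 for *Tnp1*. One median gave -0.048 for *Crem* 1418322_at, -0.012 for *Gtf2a2*, -0.016 for *Kif17* and -0.040 for *Ldhc*. With a mouse left out, 10 of 19 probe sets kept their sign and 9 did not. The log2 fold change of *Crem* ran from -0.040 to 0.034 (1430847_a_at), -0.041 to 0.095 (1418322_at) and -0.26 to 0.13 (1449037_at), and that of *Rfx2* 1417332_at from -0.077 to 0.026. *Tcfl5* ran from -0.033 to 0.027. *Brwd1* ran from -0.22 to 0.15 (1452322_a_at), -0.010 to 0.24 (1427322_at), -0.031 to 0.44 (1452321_at) and -0.29 to 0.44 (1452503_a_at). Of the other genes named, *Fhl4* ran from -0.068 to 0.013, *H1f6* from -0.91 to 0.11, *Kif17* from -0.070 to 0.19, *Ldhc* from -0.017 to 0.093, *Sox13* from -0.032 to 0.69 and *Tnp1* from -0.025 to 0.022. Without a turn of sign, the value reached over 1.5 times its size with a mouse left out in *Tbpl1* 1431415_a_at (-0.089 to -0.026), *Gtf2a1l* (-0.050 to -0.0012), *Rfx2* 1433416_at (-0.36 to -0.018) and 1442578_at (0.048 to 0.27), *Sox30* (0.062 to 0.25), *Gtf2a2* (0.031 to 0.10), *Fscn3* (-0.32 to -0.093), *Ace* (-0.41 to -0.087), *Spz1* (-0.088 to -0.019), *Fhl3* (0.21 to 1.14), *Sox12* (0.098 to 0.59) and *Spo11* (0.044 to 0.42).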
